A study of Danio rerio with 10 samples.

Results

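The genes described here are those that were expressed in EGFP-positive cells sorted from uninjected control zebrafish embryos and were at least 2-fold lower in cells of the same line sorted from *hmx2;hmx3a* double knockdown (DKD) morphant embryos. The members were chosen on the 2 group means themselves, by a control mean of at least 10 and a ratio of the control mean to the morphant mean of at least 2. Of 15369 genes with values, 8766 had a control mean of at least 10, and 181 of these passed the ratio, which is 2.06% of the expressed genes. Of the 181 genes, 106 had a morphant mean below 10, and 75 kept a morphant mean of at least 10. The group means are normalized reads, scaled so that libraries can be compared, and 10 is the level below which the rule counts a gene as not expressed. The means are not corrected for gene length, so the order of means among genes is not an order of transcript number.

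Cells were sorted at 27 h, by EGFP fluorescence, from dissected trunks of the transgenic line *SU41*. In this line the conserved element *hmx CNEIII*, joined to the *cfos* promoter, drives *GAL4-VP16*, which switches on *UAS:EGFP*, and the labels call the sorted cells V1 and dI2 spinal interneurons of wild-type genotype. There were 5 uninjected control samples and 5 DKD morphant samples. Morphants had been injected at the one-cell stage with 3.5 nl of a mixture of 2 ng/nl each of an *hmx2* and an *hmx3a* morpholino plus 5 ng/nl of a further morpholino, whose target is not named here and which the uninjected controls did not receive. Morphants were also kept at 32 °C from 9 h onwards to offset their slower development, and morphants with severe malformations or with no visible phenotype were discarded before sorting. Injection, the further morpholino, the temperature and the selection of embryos therefore go together with the knockdown, and cannot be told apart from it. In cells sorted and sequenced in bulk, fewer cells of a type and less RNA per cell cannot be told apart either.

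Only the mean of each group was used, so no spread between samples, error or test can be given for any value below, and single samples are not described. The numbers are a description of the difference between 2 means. For comparison, 187 of the 8835 genes with a morphant mean of at least 10 were at least 2-fold higher in morphants, or 2.12%. The share of genes lowered 2-fold and the share raised 2-fold were thus of the same size. The median log2 difference over all expressed genes was 0.00.

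Hmx2 and Hmx3a are homeodomain transcription factors that are expressed in V1 and dI2 interneurons of the spinal cord. V1 cells are inhibitory interneurons that express *en1b* and *pax2a*, and dI2 cells are excitatory interneurons that express *foxd3* in the dorsal cord. A morpholino is a modified antisense oligo that is not cut by the cell. A translation-blocking morpholino covers the start codon of its mRNA and hinders ribosomes from starting there, so the transcript itself can remain. The 2 translation blockers are shown because they are the designed sequences that set the groups apart, and the capitals mark the 3 bases that pair with the start codon ATG.
hmx2 morpholino: ttccgctgtcctccgaattattCAT
hmx3a morpholino: acgtatcctgtgttgtttcgggCAT
The *hmx2* and *hmx3a* morpholinos are 25 bases long and end in CAT. Neither *hmx* transcript was lowered. The *hmx2* (ENSDARG00000070954) mean was 215 in controls and 695 in morphants, and the *hmx3a* (ENSDARG00000070955) mean was 736 in controls and 1804 in morphants. Since these morpholinos act on translation, the transcript levels do not check whether the knockdown worked.

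Of 13 markers of the named interneurons, *hmx2* and *hmx3a* among them, 10 had a control mean of at least 10. The interneuron marker *en1b* had means of 754 in controls and 672 in morphants, *lhx5* of 557 and 441, and *FOXD3* of 340.5 and 395. The 2 *PAX2* genes had control means of 572 and 180.0, against morphant means of 458 and 169. *PAX8* had means of 38.9 and 27.8. *EN1* and *PAX5* were below 10 in both groups, and *FOXP2* went from 5.48 in controls to 14.1 in morphants. None of the 10 expressed V1 and dI2 markers and none of the 24 expressed pan-neuronal markers was among the 181 genes, but at the 2.06% of all expressed genes lists this short would also hold few or none, so these counts say nothing particular about them. The pan-neuronal markers summed to 20377 in controls and 20835 in morphants. Of the 18 skin and periderm markers with values, 14 were members, beside 2.06% of all expressed genes. Of the 20 genes with the largest ratios, 11 are keratins or other epithelial genes. The skin list was written with earlier results of these data known, and the roles were assigned after the values were seen. These counts are therefore no independent support. The genes are called lowered genes here, by the rule, and not interneuron genes.

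The 181 lowered genes had control means from 10.1 to 3557, with a median of 22.4, and morphant means from 0.581 to 1273, with a median of 8.24. Their ratios ran from 2.00 to 18.1, with a median of 2.57, which is −1.36 on the log2 scale. Most were lowered only moderately. Ratios lay between 2 and 2.5 for 83 genes, reached 3 for 58 genes, 5 for 11 genes and 10 for 4 genes. Together the 181 genes held 2.79% of the summed control means and 1.13% of the summed morphant means. The share of members was largest at both ends of the range of control means. Of genes with a control mean of 10 to 20, 3.01% were members, against 1.14% of genes between 50 and 100, 1.18% of genes between 100 and 500 and 4.31% of genes of at least 500. The last group holds only 10 members, among them the keratins *krt4*, *cyt1* and *cyt1l* and 4 Hsp70 genes.

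**Figure D1:**
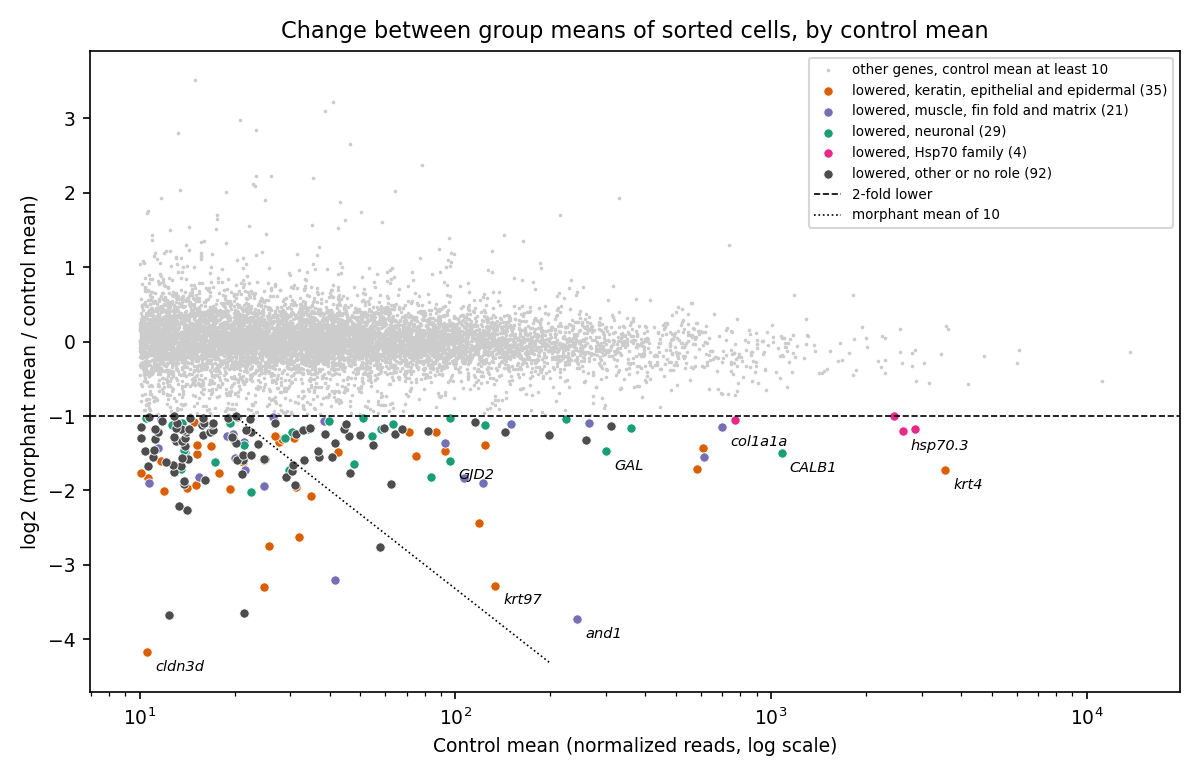
Difference between the group means of each of 8766 genes with a control mean of at least 10, on the log2 scale, against the control mean on a log axis, with the 181 lowered genes coloured by role. Each point is 1 gene and has no error bar because only group means were used; genes under the dotted line had a morphant mean below 10, and the 35 keratin, epithelial and epidermal genes include *cldn3d*, with a ratio of 18.1.

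The 75 genes that stayed expressed and the 106 genes that dropped below 10 differed in level by construction, since no gene with a control mean under 20 can be lowered 2-fold and stay at 10. The 106 genes that dropped had control means of 10.1 to 57.7 and a median ratio of 2.86. The 75 genes that stayed had control means of 20.1 to 3557 and a median ratio of 2.37. Of the 106, 38 had morphant means under 5. The 75 genes held most of the reads, with a summed mean of 21494 in controls and 8583 in morphants, against 1873 and 621 for the 106. The line between the groups is narrow, because 7 of the 106 genes had morphant means of 9 to 10 and 4 of the 75 had morphant means of 10 to 11.

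The ratio of 2 is also a narrow line. Ratios of 2 to 2.1 were found for 19 genes, and 36 expressed genes had a ratio of 1.9 to 2 and are not counted. Among genes with a control mean of at least 100, the members nearest the line were *hsp70l* with a ratio of 2.00, *IGLON5* with 2.05, *hsp70.1* with 2.08, *ATP1B1* with 2.12 and *TNNI2* with 2.13. The genes just outside it were *serpina10a* with 1.99, *CTBP1* with 1.98, *pgam1a* with 1.94, *RAB6B* with 1.93 and *pfn1* with 1.895.

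Symbols were found for 177 of the 181 genes, and 79 of these symbols are in capitals without the letter that tells zebrafish gene copies apart. For 22 of the 177 symbols the table holds a second gene whose symbol is spelled the same, and none of these second genes was a member. Copies spelled in another case are not among the 22, such as *PCDH8*, with means of 10.3 and 5.43, beside the member *pcdh8*. The copies of 1 symbol could differ in direction. *GJD2* had 1 gene (ENSDARG00000070781) with means of 96.2 in controls and 31.7 in morphants and another with means of 30.8 and 44.1, and *NTNG1* had 1 gene (ENSDARG00000073713) with 22.4 and 5.54 and another with 6.48 and 11.9. Of the 22 second genes, 11 had a control mean of at least 10, of which 4 were lower and 7 were higher in morphants. A capital symbol below therefore stands for 1 of several possible copies. Known roles were assigned to 113 of the 181 genes after their values had been seen, and the remaining 68 are described at the end. No roles were assigned to the other expressed genes, so counts by role have no share over all expressed genes beside them.

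Epithelial genes were the largest set with an assigned role. Embryonic zebrafish skin consists of an outer periderm and a basal layer, both rich in keratins, the proteins of epithelial intermediate filaments, and held together by claudins and desmosomes. Of the 181 genes, 35 (19.3%) are keratins, epithelial junction genes or other epidermal and epithelial genes, not all of them particular to skin, and they made up 11 of the 20 genes with the largest ratios. Their means summed to 5986 in controls and 1853 in morphants. Of the 35, 20 dropped below 10 and 15 stayed expressed. The share of such genes among all expressed genes was not computed, so these counts are a description of the members only.

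The keratins were 10 of these genes, all with ratios of at least 2.68. The highest mean was that of *krt4* (ENSDARG00000017624), a type II keratin of the periderm, at 3557 in controls and 1077 in morphants. The type I keratins *cyt1* and *cyt1l* had control means of 610.0 and 584 and morphant means of 227 and 178. All 3 thus kept means above 100 in the morphant samples. The largest ratio was that of *krt97*, at 9.71, with means of 133 and 13.7. Next came *krt92*, which went from 31.9 in controls to 5.19 in morphants, and *krt1-19e*, which went from 119 to 21.9. *krt5*, a keratin of basal skin cells, had means of 92.8 and 33.5. *krt17*, *krt91* and *KRT222* had control means of 19.3, 31.2 and 11.7, and all 3 were below 10 in morphants. The keratins *krt1-19e*, *krt92*, *cyt1l*, *cyt1*, *krt17* and *krt91* form 1 run in the RefSeq gene order, with successive members at most 5 places apart. Reads may be shared between such closely related genes, so the split among them is uncertain, but the summed mean of the 10 keratins was 5190 in controls and 1574 in morphants.

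Keratins outside the list showed that the difference was not uniform across the family. Of 12 genes with a *krt* symbol and a number, 11 had a control mean of at least 10. Of these 11, 8 were members (72.7%), beside 2.06% of all expressed genes. *krt8* had means of 63.2 and 34.1, *krt18a.1* of 159.6 and 103, and *krt15* was below 10 in both groups. *krt18b* had a mean of 28.6 in controls and 30.2 in morphants. It was the 1 gene of the 12 with a higher mean in morphants. Keratins 8 and 18 are also made by simple epithelia and by other embryonic tissues such as the notochord.

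Genes of cell junctions and epithelial membranes were 15 of the lowered genes, and 12 of these dropped below 10. Claudins form the seal of tight junctions. *cldn3d* (ENSDARG00000015955) had the largest ratio of all 181 genes, at 18.1, with means of 10.5 in controls and 0.581 in morphants. That ratio rests on low means. Its log2 difference of −4.18 became −2.86 with a pseudocount of 1 and −1.47 with a pseudocount of 5. *cldnb*, which lies close to it in the gene order, had means of 34.8 and 8.24. *cldn7b*, *cldne* and *cldni* had ratios of 3.39, 3.07 and 2.32. Tight junction scaffold *tjp3* went from 11.9 to 2.96, *oclna*, an occludin gene, from 14.9 to 7.06, and *f11r.1*, which codes for a junctional adhesion molecule, from 15.01 to 3.93. Desmosomal plakophilin *pkp3a* had means of 16.8 and 6.34. The highest mean of this set was that of *epcam*, an adhesion molecule of epithelial cells, with means of 124 and 47.6. *CDH17*, a cadherin known from gut and kidney epithelia, had means of 25.6 and 3.82, a ratio of 6.70. *spint1a* and *spint2*, which code for membrane-bound inhibitors of the protease matriptase, had ratios of 3.01 and 2.62.

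Another 10 genes are known from epidermis or epithelia. *ELF3*, an epithelial Ets transcription factor, had means of 24.7 in controls and 2.504 in morphants, and its ratio of 9.87 was the largest of any transcription factor given a role here. *ESRP1*, an epithelial splicing regulator, went from 10.1 to 2.98, and *RIPK4*, a kinase of epidermal differentiation, from 10.6 to 2.98. Both were at the low end of the expressed range in controls. The ictacalcins *icn* and *icn2* and *s100a10b*, which code for calcium-binding S100 proteins and lie close together in the gene order, had ratios of 2.47, 2.40 and 2.92. Annexin genes *anxa1c* and *ANXA1* had control means of 71.2 and 30.7 and morphant means of 30.6 and 12.5.

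A list of 20 skin and periderm markers was also described. The list was written with earlier results of these data known, most of its genes were chosen by the rule from these same means, and its counts are no independent support. It shares 7 genes with the keratins. Of its markers, 18 had values, and all 18 had a control mean of at least 10. Their means summed to 5584 in controls and 1853 in morphants, and the median log2 difference was −1.34. All 18 were lower by at least 1.5-fold, and 14 by at least 2-fold, beside 517 and 181 of all 8766 expressed genes. The 4 that missed the 2-fold line were *TP63*, the basal epidermal regulator, with means of 29.3 and 15.4, the epithelial cadherin *cdh1* with 17.3 and 9.31, and *krt8* and *krt18a.1*. No skin marker was at 0 in either group. The part of skin cells in the lower means of other genes was not tested.

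**Figure D2:**
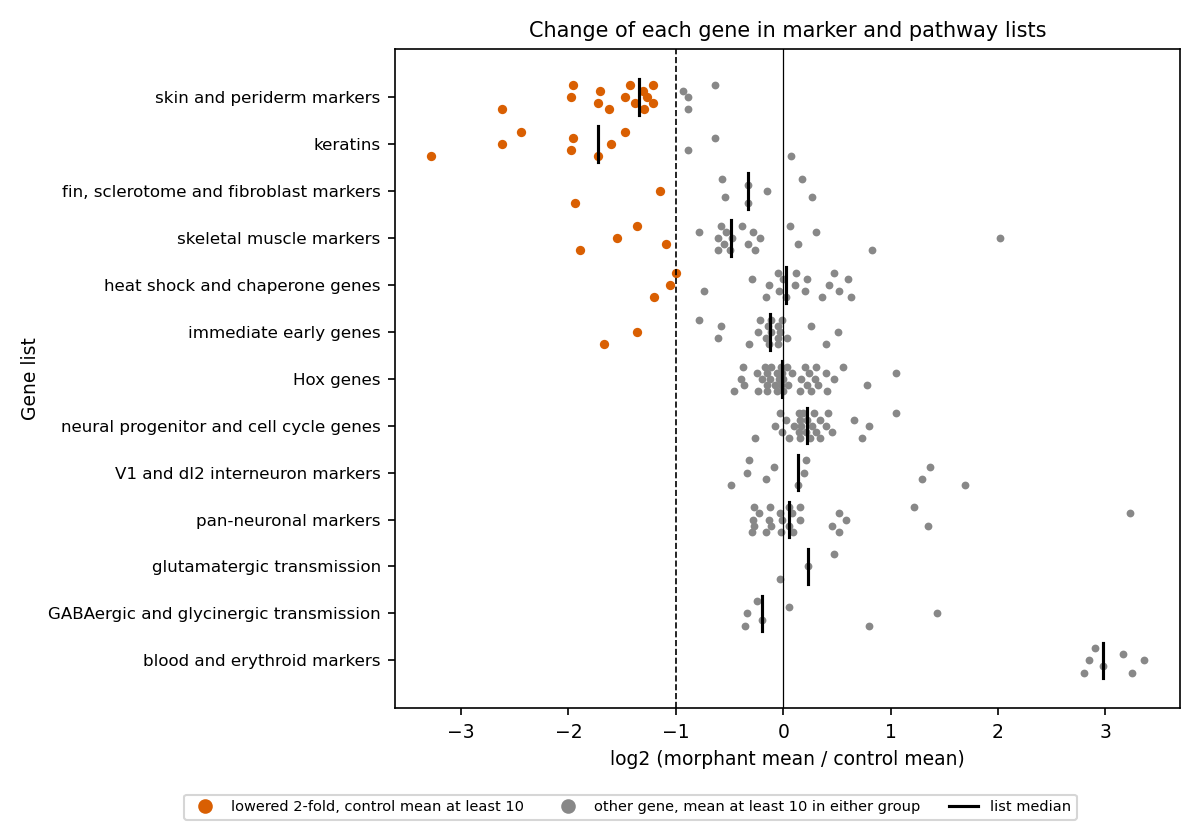
Difference between morphant and control means of each gene, on the log2 scale, for 13 lists of marker and pathway genes; orange points are lowered genes, grey points are other genes that reached a mean of 10 in 1 group or both, and the black bar is the list median. The skin markers lie left of 0 throughout. The pan-neuronal and interneuron markers lie on both sides of 0, with none left of the dashed line that marks 2-fold lower. In each of these lists 3 genes were at least 2-fold higher. For the interneuron markers these are *FOXP2* and the morpholino targets *hmx2* and *hmx3a*. All 7 blood markers lie far to the right.

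Genes of the fin fold and of the extracellular matrix were 11 of the lowered genes, with a median ratio of 2.95. Actinodins are structural proteins of the actinotrichia, the fibres that stiffen the larval fin fold. *and1* (ENSDARG00000088514) had means of 242 in controls and 18.3 in morphants, a ratio of 13.3, which was the largest of all genes that stayed at 10 or above. *and2* had means of 41.4 and 4.51, a ratio of 9.18. The small leucine-rich proteoglycans *DCN* (decorin), *OGN* and *KERA* had ratios of 3.84, 3.54 and 2.54, and all 3 had morphant means below 10. *col1a1a*, a chain of type I collagen, had the highest mean of the set, with 700.1 in controls and 317 in morphants. The laminin genes *LAMB1* and *LAMA5* and the tenascin gene *TNC*, which code for basement membrane and matrix glycoproteins, had control means of 38.4, 11.4 and 20.0, and morphant means of 18.4, 4.23 and 6.79. The second *TNC* gene was higher in morphants, with means of 27.2 and 33.4, as was the second *LAMB1* gene, with 2.49 and 3.12. Of 16 expressed collagen genes, *col1a1a* was the only member (6.25%), beside 2.06% of all expressed genes, and 6 were higher in morphants. The collagens summed to 2042 in controls and 1522 in morphants. Of 9 expressed fin, sclerotome and fibroblast markers, *col1a1a* and *DCN* were members (22.2%) and 2 were higher in morphants. This list summed to 1825 and 1173. Shares of lists this short rest on 1 or 2 genes.

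Of the lowered genes, 10 are known from skeletal muscle, and most of these belong to fast fibres. Fast myosin heavy chain genes *myhz1.1* and *myhz1.2* had control means of 614 and 122 and morphant means of 209.6 and 32.9. *myhc4*, a further fast myosin gene, had means of 19.7 and 8.37 and lies close to them in the gene order. The split of reads among these near-identical genes is uncertain. The parvalbumins *pvalb1* and *pvalb2*, which bind calcium in fast muscle, went from 106 to 29.9 and from 149.6 to 69.3. The fast troponin genes *TNNT3* and *TNNI2* had ratios of 2.58 and 2.13, and both have a second gene that was not a member. The other muscle markers were lower by less or not at all. Of 21 expressed skeletal muscle markers, 4 (19.0%) were members, beside 2.06% of all expressed genes. Of the 21, 7 were lower by at least 1.5-fold, beside 517 of all 8766 expressed genes. The list summed to 10329.9 in controls and 7734 in morphants. Slow myosin *smyhc1* had means of 232 and 411, higher in morphants. The part of muscle RNA in these differences was not tested.

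The sodium pump exchanges sodium for potassium across the cell membrane. Of its subunits, 3 were lowered. The alpha subunit gene *atp1a1a.4* had means of 57.7 in controls and 8.50 in morphants, and *atp1a1a.3*, close to it in the gene order, had 29.1 and 8.25. In zebrafish embryos these alpha subunits are known from ionocytes of the skin and from the pronephros. The beta subunit gene *ATP1B1* went from 115 to 54.5. The neuronal alpha subunits *atp1a3a* and *atp1a3b* were not lowered, with control means of 899.6 and 558 and morphant means of 882 and 800.2. Endothelial markers gave no expressed gene among 11 with values.

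Calcium and actin regulators formed 2 smaller sets. The 4 calpains *CAPN9*, *capn2b*, *capn8* and *capn2l*, calcium-activated proteases, had ratios of 3.16, 2.31, 2.25 and 2.16, and all 4 were below 10 in morphants. The 6 actin cytoskeleton genes all stayed expressed, at 10.1 to 35.5 in morphants. They were *MYH9*, a non-muscle myosin heavy chain, with means of 46.3 and 13.6, the gelsolin family members *GSN* and *scinla* with ratios of 2.93 and 2.27, the cofilin-like *cfl1l* with 2.31, the thymosin *tmsb1* with 2.26 and the alpha-actinin *ACTN1* with 2.00. A second *MYH9* gene had nearly equal means of 29.5 and 29.0, and a second *GSN* gene was higher in morphants.

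**Figure D3:**
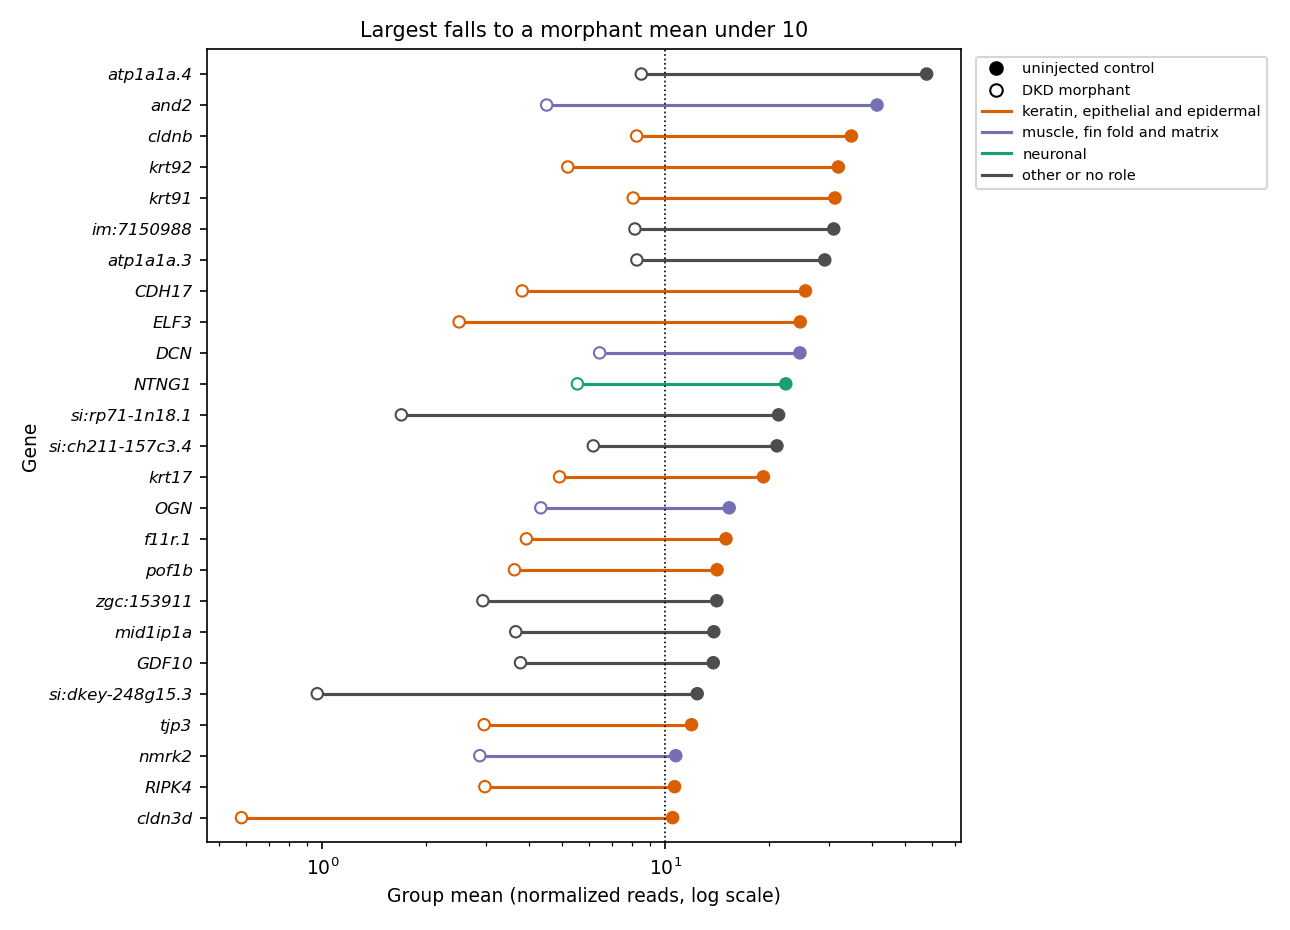
Control mean (filled) and morphant mean (open), in normalized reads on a log axis, of the 25 genes with a symbol and the largest ratios among the 106 genes that dropped below a morphant mean of 10, marked by the dotted line. Each row is 1 gene with its 2 group means and no error. Of the 25, 11 are keratin, epithelial or epidermal genes, and *NTNG1* is the only neuronal gene. The roles were assigned after the values were seen, so nothing is read from these counts.

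The Hsp70 genes were the other set with high means. Hsp70 proteins are chaperones that bind unfolded proteins, and the inducible members are made after heat and other stress. *hsp70.3* had means of 2611 in controls and 1132 in morphants, *HSPA2* of 2864 and 1273, *hsp70l* of 2451 and 1223, and *hsp70.1* of 768 and 369. All 4 stayed expressed, and their ratios of 2.00 to 2.31 were close to the 2-fold line. These genes are near copies of each other, so the reads of 1 gene may have been counted for another, but their sum was 8694 in controls and 3998 in morphants. Other chaperones were not lowered 2-fold. In a list of heat shock and chaperone genes, 3 of 21 expressed genes (14.3%) were members, beside 2.06% of all expressed genes. Of the 21, 11 were higher in morphants. The constitutive *HSPA8* had means of 3056 and 2493, the Hsp40 gene *dnajb1b* of 391 and 234, and *hsp90aa1.1* was higher in morphants, with 240.4 in controls and 372 in morphants. The morphants were the group raised at 32 °C, and its part in these values was not tested.

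A further 5 genes are known to respond to activity or stress. *klf2b* had means of 13.5 in controls and 4.25 in morphants, the orphan nuclear receptor *NR4A3* of 21.2 and 7.02, and the activity-dependent transcription factor *NPAS4* of 20.2 and 7.87. *PTGS2*, an inducible enzyme of prostaglandin synthesis, had means of 54.9 and 21.0, and *NOCT*, nocturnin, had means of 20.3 and 10.0. *FOS* had means of 1368 and 1327, *JUN* of 868 and 786, and 2 of 22 expressed immediate early genes (9.09%) were members, beside 2.06% of all expressed genes. This share rests on 2 genes. Of the 22, 4 were lower by at least 1.5-fold, among them *NR4A1* with means of 140 and 81.4, and 4 were higher in morphants. Their median log2 difference was −0.13.

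**Figure D4:**
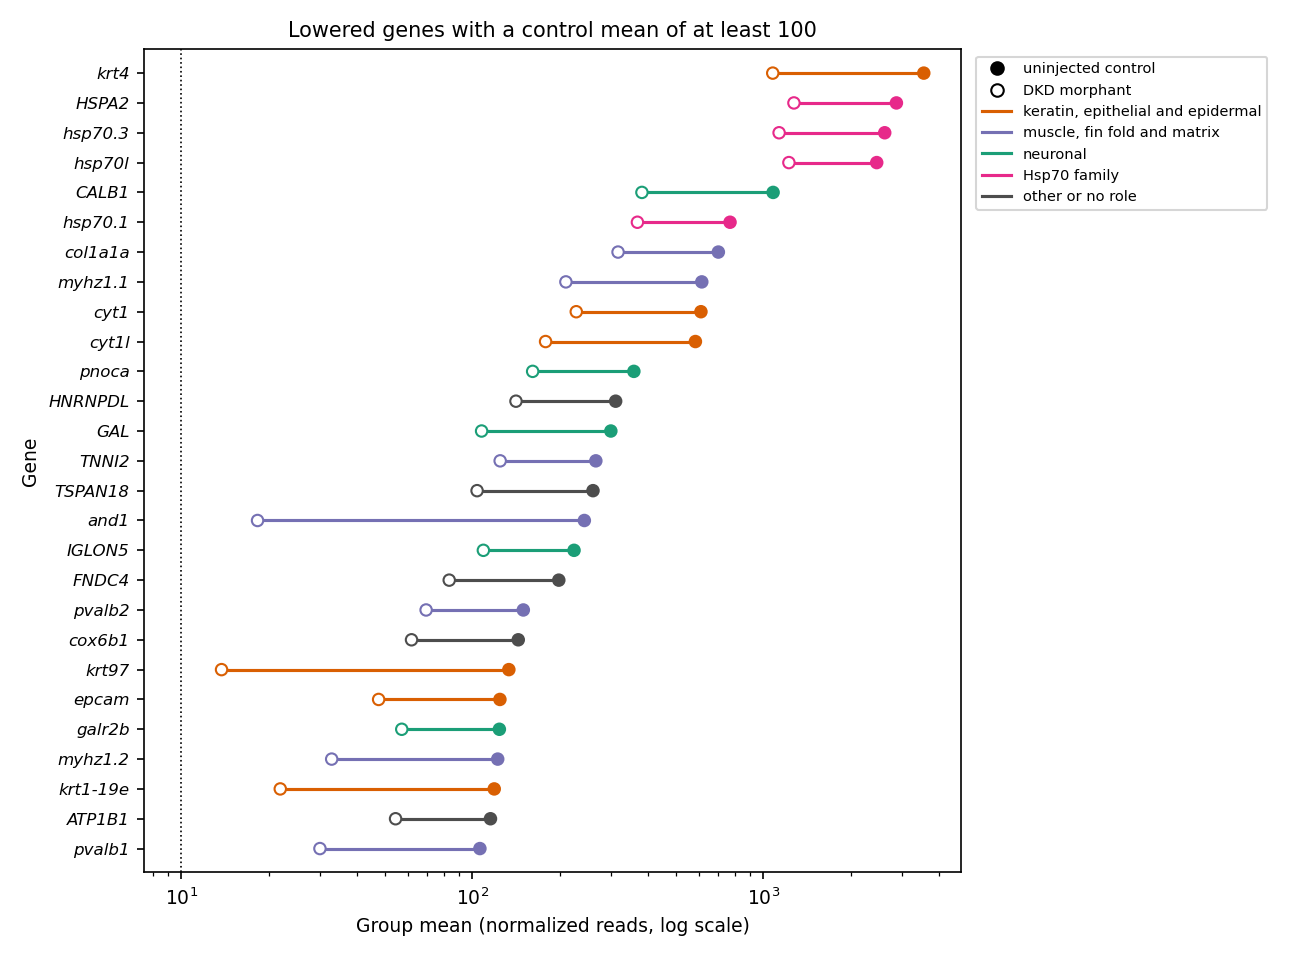
Control mean (filled) and morphant mean (open), in normalized reads on a log axis, of the 27 lowered genes with a control mean of at least 100. Each row is 1 gene with its 2 group means and no error; all 27 stayed right of the dotted line at 10, and *and1*, *krt97* and *krt1-19e* have the longest lines.

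Genes with a neuronal role were 29 of the 181 (16.0%), with no share over all expressed genes computed to set beside this. Their ratios ran from 2.03 to 4.05, with a median of 2.41. Only *NTNG1* was among the 20 genes with the largest ratios. In this set 17 genes stayed expressed and 12 dropped below 10, and their means summed to 2976 in controls and 1174 in morphants. The members were chosen on the ratio, and the roles were assigned after the values were seen. Counts of roles among the largest ratios are therefore descriptions only, and no order of the sets is read from them.

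The neuronal member with the highest mean was *CALB1* (ENSDARG00000031598), calbindin, a calcium buffer that marks subsets of interneurons in many species. Its mean was 1079.8 in controls and 382 in morphants, a ratio of 2.82. It was the only neuronal gene among the 10 lowered genes with a control mean of at least 500. Its morphant mean was still well above the limit for expression.

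Neuropeptides, amine synthesis and the receptors for them made up 7 members. *GAL* (ENSDARG00000091377), which codes for the neuropeptide galanin, had means of 299 in controls and 108 in morphants, and *galr2b*, a galanin receptor gene, had means of 124 and 57.2. The ligand and a receptor of the same peptide were thus both lower. *pnoca*, the precursor of nociceptin, had means of 359 and 161. *TPH1*, tryptophan hydroxylase, makes the first step of serotonin synthesis and had means of 47.6 and 15.24, while the serotonin receptor gene *htr1aa* went from 29.6 to 8.99. *uts2r1*, a receptor for urotensin II, and *MC4R*, a melanocortin receptor, had control means of 13.5 and 13.6 and were below 10 in morphants. The list of neuropeptides and granins does not contain *GAL* or *pnoca*. None of its 6 expressed genes was lowered 2-fold, but 5 of the 6 were lower in morphants, with a median log2 difference of −0.54, among them the opioid precursor *PENK* with means of 694 and 430.3.

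Ion transport, gap junction and excitability genes made up 7 members. *GJD2*, connexin 36, forms electrical synapses between neurons, and its member gene had means of 96.2 in controls and 31.7 in morphants. *slc12a5a* codes for the potassium-chloride cotransporter that sets the chloride gradient for inhibitory transmission, and had means of 21.4 and 8.15. *KCNS3*, a modifying potassium channel subunit, went from 13.8 to 5.00, and the acid-sensing channel gene *ASIC4* from 30.3 to 13.1. *GSG1L*, an auxiliary subunit of AMPA receptors, had means of 57.9 and 25.7. *FGF14*, which modulates sodium channels, and the sodium-calcium exchanger *SLC24A4* were near the control minimum, at 10.5 and 12.6. In the lists, 2 of 61 expressed ion channels (3.28%) and 2 of 59 expressed transmitter receptors (3.39%) were members, beside the 2.06% over all expressed genes.

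The 5 adhesion and guidance members were *NTNG1*, *NCAM2*, *CXCR4*, *pcdh8* and *IGLON5*. Netrin-G1, the product of *NTNG1*, is a membrane-anchored synaptic adhesion protein, and the member gene had means of 22.4 in controls and 5.54 in morphants. *NCAM2*, a neural cell adhesion molecule, went from 13.9 to 4.97, and *CXCR4*, the receptor for a chemokine that guides migrating cells, from 54.5 to 22.6. *IGLON5* had the highest mean of these, with means of 224 and 109. None of 46 expressed axon guidance genes was a member. At the 2.06% of all expressed genes a list of this size would also hold few or none, so nothing is read from this count. Of the 46, 31 were higher in morphants, and their median log2 difference was 0.16, beside 0.00 over all expressed genes.

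The other neuronal members besides *CALB1* were 9 genes. *ralyl*, an RNA-binding protein gene, had the largest ratio of them, 3.52, with means of 83.7 and 23.8. The intermediate filament gene *PRPH*, peripherin, had means of 63.2 and 29.3. It was the only member among 6 expressed motoneuron markers (16.7%), beside 2.06% of all expressed genes. This share rests on 1 gene. Of the 6, 3 were lower by at least 1.5-fold and 2 were higher in morphants. *ZIC1*, a transcription factor of the dorsal neural tube, went from 28.9 to 11.7. *CDK5R2*, an activator of the kinase Cdk5, had means of 51.0 and 25.1, whereas the second *CDK5R2* gene had means of 536 and 441. The kinase gene *camk1db*, the receptor genes *GPR52* and *gpr61l*, *BRINP3* and the vesicle protein gene *RAB26* had ratios from 2.03 to 3.06.

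**Figure D5:**
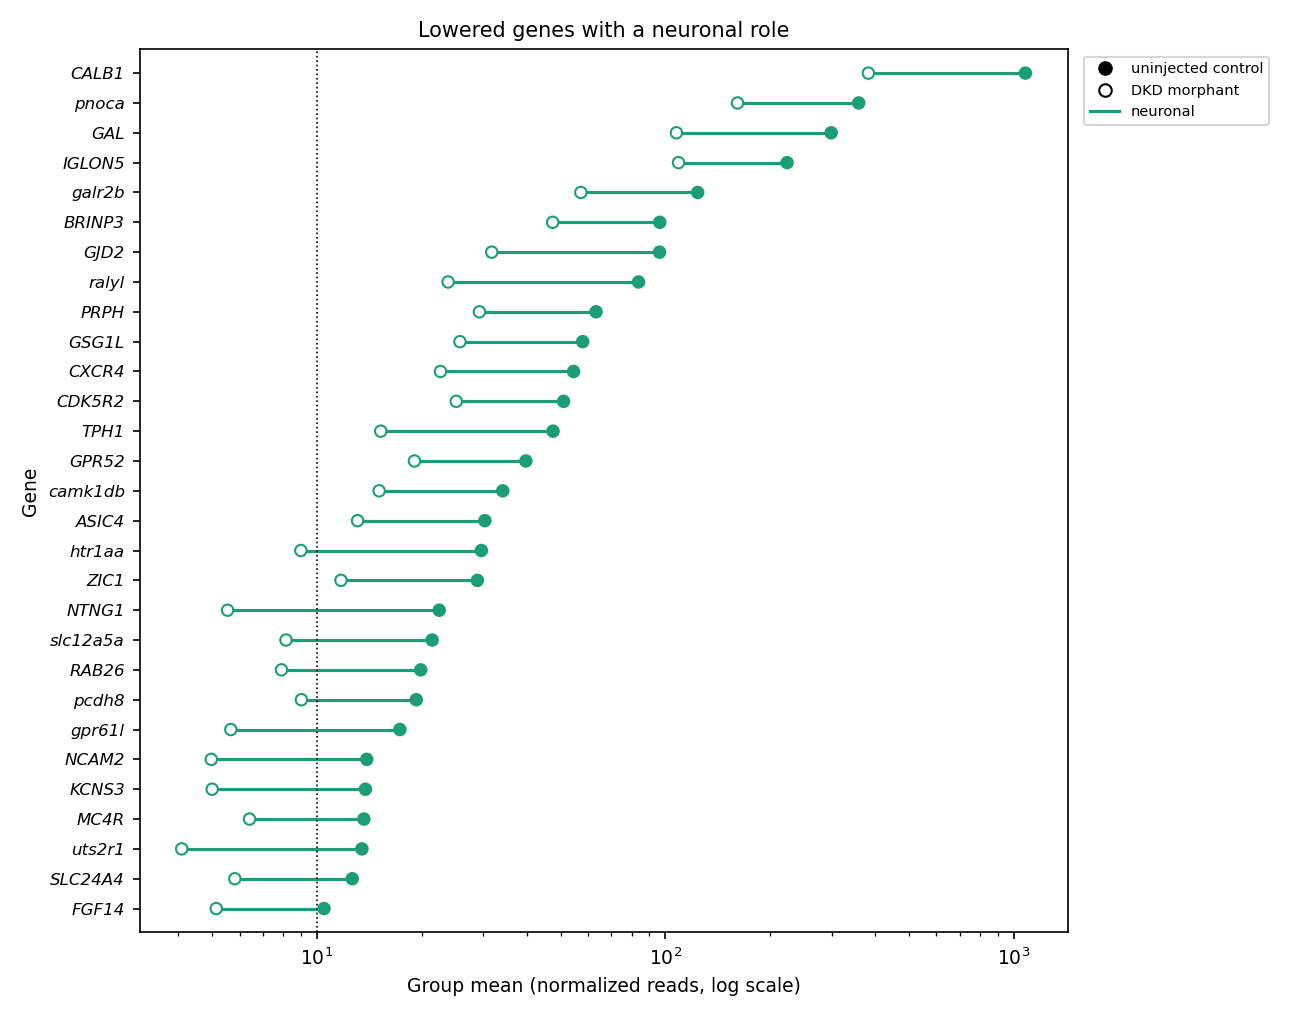
Control mean (filled) and morphant mean (open), in normalized reads on a log axis, of the 29 lowered genes with a neuronal role. Each row is 1 gene with its 2 group means and no error; 12 open points lie left of the dotted line at 10, and *CALB1*, at 1079.8 and 382, lies highest.

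Genes of transmitter identity are given for reference. The vesicular transporter *SLC32A1* had means of 613 and 486, the glycine transporter *SLC6A5* of 532 and 415, and a *GAD1* gene was higher in morphants, with means of 142 and 384. No member was found among 7 expressed genes of GABA and glycine transmission, 3 glutamatergic genes, 27 synaptic vesicle genes, 39 Hox genes and 68 homeobox and LIM genes. At the 2.06% of all expressed genes, lists of these sizes would also hold few or none, so nothing is read from these counts.

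Growth factors and developmental transcription factors outside these sets were 6 genes, and all were below 10 in morphants. *BMP4* had means of 21.1 and 7.36, the related *GDF10* of 13.8 and 3.78, and *VEGFA* of 12.8 and 6.37. The second *VEGFA* gene was higher in morphants, with means of 9.62 and 15.8, and the second *GDF10* gene was lower, with 9.08 and 7.83. *CEBPA*, a regulator of myeloid and liver cells, *PRDM1* and the presomitic mesoderm gene *msgn1* had control means of 11.2, 13.98 and 11.4. The control means of these last 3 genes are close to the control minimum of 10.

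The 68 genes without an assigned role had control means of 10.1 to 311 and a median ratio of 2.44. Of these, 48 dropped below 10. The largest ratios were those of *si:dkey-248g15.3*, with means of 12.4 in controls and 0.966 in morphants, and *si:rp71-1n18.1*, with 21.4 and 1.70. Both have provisional names. Of 391 expressed genes with provisional names, 14 (3.58%) were members. The highest means were those of the RNA-binding protein gene *HNRNPDL*, with 311 and 141, the tetraspanin *TSPAN18*, with 259.7 and 104, *FNDC4*, with 198 and 83.3, and the respiratory chain subunit *cox6b1*, with 144 and 61.8. Members made up 0 of 88 expressed ribosomal protein genes and 2 of 111 expressed respiratory chain genes (1.80%), near the 2.06% of all expressed genes.

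Some lowered genes lay close together. Of the 181 genes, 137 could be placed in the RefSeq gene order of the GRCz12tu assembly. Of these, 36 (26.3%) lay in 14 runs, with successive members at most 5 places apart in the order of protein-coding genes. Most runs are families of related genes, such as the 6 keratins, the 3 calpains *capn2b*, *capn8* and *capn2l*, the 3 myosin genes, the claudins *cldn3d* and *cldnb* and the proteoglycans *KERA* and *DCN*. Tandem copies can share reads, and no share for a random set of genes was computed.

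Markers of other cell types moved in both directions between the groups. All 7 blood and erythroid markers were at least 2-fold higher in morphants, and their means summed to 74.5 in controls and 576 in morphants. Of 28 expressed neural progenitor and cell cycle genes, 24 were higher in morphants, but mostly by little. Their median log2 difference was 0.22, beside 0.00 over all expressed genes, and 1 gene of the list was at least 2-fold higher.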

How the data were processed

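EGFP-positive trunk cells of 5 uninjected control and 5 DKD morphant samples were sorted, and RNA was amplified and sequenced (SMART-Seq v4, Nextera XT). The authors used Partek throughout: adapters and low-quality ends were trimmed, alignment was by STAR 2.6.1d, and TMM scaling preceded its gene-specific analysis; the genome build is not given in the sources used here. The deposited table holds, for each Ensembl gene, a normalized signal per group (the least squares mean of the reads) and 4 columns of the authors' own comparison, a P-value, an adjusted P-value, a ratio and a fold change, which were not used. TMM scaling assumes that most genes do not differ. The values are not per gene length. Differences were therefore taken between groups within a gene, and highest means and summed means describe reads, not numbers of transcripts. Depth per sample is unknown from this table, no interval could be computed, and low means are the less precise ones.

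From the 2 means the ratio (control over morphant) and the log2 of its inverse were computed with Python 3.11.15, NumPy 2.4.6 and pandas 2.3.3, and figures were drawn with Matplotlib 3.10.9. No pseudocount was added. No test was made, because each group has 1 value per gene. Symbols came from an Ensembl name table (14905 of 15369 identifiers matched), and list entries were matched to them without regard to case, or to a capital symbol that lacks the copy letter. The genes, the 47 lists and the roles were chosen with earlier results of these data known, and the roles and the matching of capital symbols after the values were seen. Genes named were the members in a list, the members with the largest ratios and the highest control means among those below and those at or above a morphant mean of 10, the genes nearest the 2-fold line, *hmx2* and *hmx3a*, and examples of each role and of the lists chosen after their values were seen. Alternatives were other minimums on the control mean, other ratios, other morphant limits, pseudocounts of 1 and 5 and 2 scalings. Promoter and protein sequences were not used here. Results that need an item withheld for evaluation are not reported here.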

Additional observations from a re-analysis of the deposited data

How the results depend on the processing

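The number of lowered genes depended on the rule. The 181 genes became 285 with a control minimum of 5, 107 with a minimum of 20 and 505 with no minimum, 517 at a ratio of 1.5 and 58 at a ratio of 3. A pseudocount of 5 added to both means left 102 genes and a pseudocount of 1 left 164. Scaling both groups to the same summed mean left 167, and centring on the median left 181, with shifts of all genes of 0.04 and −0.00 on the log2 scale. The number of genes below the morphant limit went from 106 at a limit of 10 to 38 at a limit of 5 and 137 at a limit of 20. The median log2 difference of the 181 genes lay between −1.36 and −1.03 under these pseudocounts and scalings. None of the 181 could change direction under them. A pseudocount added to both means keeps the direction, and the shifts of the scalings are small beside a 2-fold difference. The fold difference changed at least 1.5-fold for 3 genes with a pseudocount of 1 and for 35 with a pseudocount of 5. Added after the data were seen, the number of skin list members stayed at 13 or 14 of 14 under both pseudocounts and both scalings and was 6 at a ratio of 3. The 29 neuronal members became 16 with a pseudocount of 5 and 7 at a ratio of 3, and their counts under the other settings are not given here. These counts are not compared, because the list and the roles were made in different ways and both rest on the means that chose the genes. A pseudocount weighs most on low means, and 12 of the 29 had morphant means below 10. No paired analysis was possible because the columns used are group means, so the replicate numerals that both groups share could not be used. For the same reason leaving out single samples was not run. Depth is unknown, so the 74 genes with a control mean under 20 are the ones whose ratios are least certain.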

Other observations

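Some genes just outside the rule belong to the same sets. Of genes with a control mean of 9 to 10, 10 had a ratio of at least 2, among them *foxa3*, an endodermal transcription factor gene, with means of 9.68 in controls and 1.93 in morphants. The immediate early gene *klf2a* had means of 7.15 and 1.56, beside its member relative *klf2b*. The cytoskeletal gene *pfn1*, a profilin, had means of 222 and 117. Neurofilament genes went the other way, with means of 163 in controls and 417 in morphants for *nefma*, and of 562 and 806 for *nefmb*. The pigment pathway gene *gch2* was also higher in morphants, with means of 329.8 and 1252. Of 6 expressed neural crest and pigment markers, *gch2* among them, only 3 were higher in morphants, and their median log2 difference was 0.06.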
